A study of Homo sapiens with 18 samples.

Results

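NCI-H2228 is a human lung adenocarcinoma cell line in which the ALK gene is fused to EML4, and the question here is how its transcripts changed 3 h after TRI-611 was added. TRI-611 is a molecular glue degrader directed at ALK, a small molecule that brings its target protein to the cell's ubiquitin machinery for destruction. The members are all genes that reached 1 TPM (a length-normalised share of all transcripts in a library) in at least 3 of the 6 NCI-H2228 libraries, which left 16806 of the 57500 genes in the table. The series holds 18 poly-A RNA libraries, of which these 6 are NCI-H2228 and the rest are NCI-H3122 and SNU2535, given the same treatments. All are cultured non-small cell lung cancer lines of genotype WT in the labels. In NCI-H2228, 3 libraries came from cells given TRI-611 at 3 µM for 3 h and 3 from cells given DMSO, the solvent. No label states that replicates were grown as separate cultures, and the p-values below therefore measure only the spread between these libraries, which may be technical.

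ALK is a receptor tyrosine kinase that is normally silent in adult lung. As the EML4-ALK fusion it signals without a ligand through the RAS-RAF-MEK-ERK cascade, through PI3K and AKT, and through JAK and STAT3. ERK activity keeps up the transcription of its own inhibitors, of AP-1 factors and of MYC, while AKT holds the FOXO factors out of the nucleus, where they would otherwise switch on growth arrest and death genes. Transcripts of these branches are the ones described first below.

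Epithelial and lung markers were expressed, as in a lung cancer line, but they do not identify NCI-H2228 itself. Keratin and other epithelial markers were all tested (9 of 9), with a summed level of 3295 to 3355 TPM in TRI-611 libraries and 3581 to 3698 TPM in DMSO libraries. Among them, the lung factor NKX2-1 and the epithelial gene EPCAM were well expressed, while CDH1 stood at only 5.56 to 6.36 TPM over the 6 libraries. Leukocyte markers summed to 11.7 to 13.3 TPM in TRI-611 libraries and 11.1 to 12.8 TPM in DMSO libraries, with 2 of 9 tested and 3 at 0 in all 6. Fibroblast and smooth muscle markers summed to 365 to 378 TPM against 375 to 398 TPM, nearly all of it COL1A1 (361 to 393 TPM), with 2 of 8 tested and 1 at 0. Endothelial and red cell markers summed to 2.44 to 2.73 TPM against 2.68 to 3.05 TPM, with 1 of 7 tested and 1 at 0. Mitochondrially encoded genes took 10.8% ± 0.591 of all TPM in TRI-611 libraries and 9.07% ± 1.23 in DMSO libraries (SD, n = 3 each), and the ranges overlap (10.2% to 11.4% and 8.23% to 10.5%). In bulk RNA of this kind, fewer cells that carry a transcript and less transcript per cell cannot be told apart.

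Of the 16806 genes, 1882 (11.2%) were called by limma at a Benjamini-Hochberg adjusted p under 0.05, 806 higher (4.80%) and 1076 lower (6.40%) with TRI-611. The counts in the gene lists below are to be read beside these shares. Most changes were small: the median absolute log2 change of the called genes was 0.33, and 77.4% of them moved by less than 0.5 on the log2 scale. A change of 2-fold or more was called upward in 29 genes (0.173%) and downward in 44 (0.262%). Protein-coding genes made up 1708 of the calls. Leaving out TRI-611 replicate 1 or DMSO replicate 2 lowered the count to 1133 or 1167, leaving out TRI-611 replicate 3 or DMSO replicate 1 to 1202 or 1229, and 911 genes (5.42%) were called in each of the 6 fits without 1 library. With the mitochondrially encoded genes removed and TPM rescaled, 2105 genes were called and 56.1% of them were higher, against 42.8% in the values as deposited. The strand setting of the counting is not given in the sources used here, so reads of overlapping genes cannot be told apart; among genes named below, TCP11L2, BCL2L11, MXD1, FLCN, TP53INP1, SOCS1, IFIT2, IFIT3, RDH10, MIR6813, MIR3181 and AC120498.1 overlap a more abundant gene.

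**Figure D1:**
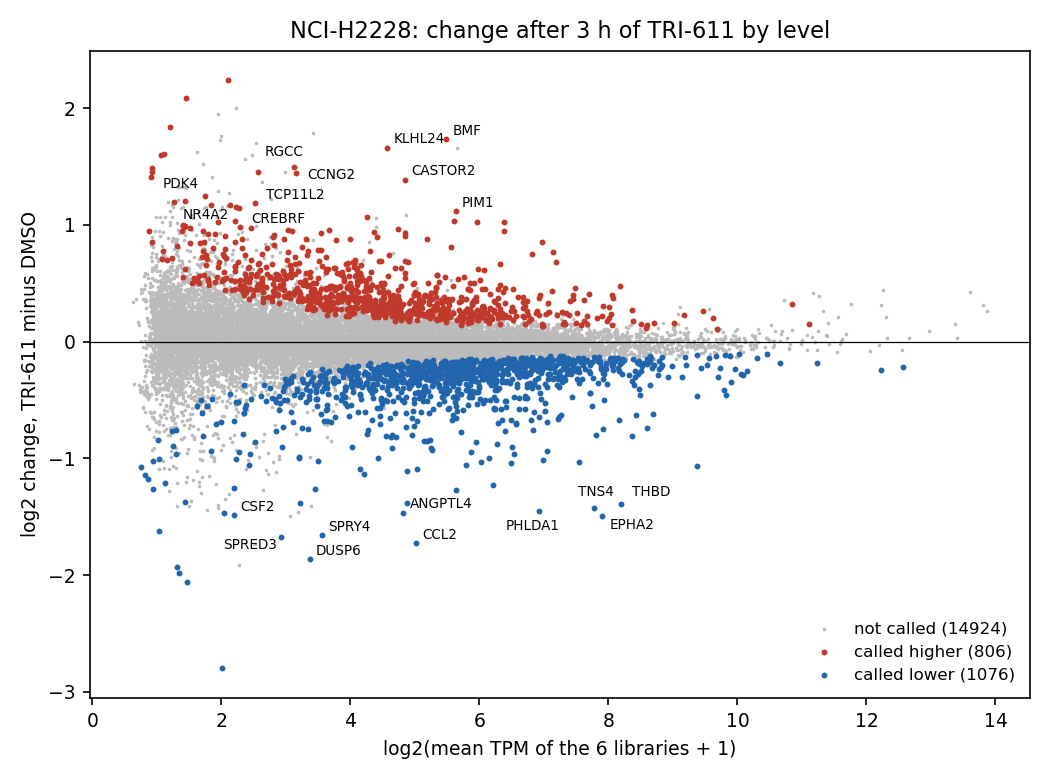
Each point is one of the 16806 tested genes of NCI-H2228. The horizontal axis is log2(mean TPM of the 6 libraries + 1) and the vertical axis the log2 change, TRI-611 minus DMSO. Red and blue points are the 806 genes called higher and the 1076 called lower, and the 10 protein-coding genes named for the largest rises and falls are labelled; DUSP6 lies at -1.86 and BMF at 1.74.

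The target's own transcripts were not called. ALK (ENSG00000171094, GRCh38 chromosome 2, 29192774 to 29921566, minus strand) was at 10.7, 11.0 and 10.8 TPM in TRI-611 libraries and 11.1, 10.9 and 11.1 TPM in DMSO libraries, and the groups overlap. The log2 change was -0.02 (limma adjusted p = 0.868). Its fusion partner EML4 (chromosome 2, 42169350 to 42332548) averaged 57.3 ± 2.11 and 58.3 ± 0.905 TPM (SD, n = 3 each; log2 change -0.02, limma adjusted p = 0.772). These are levels of whole genes, so reads of the fusion and of the unfused alleles are counted together, and the protein was not measured here. Of the 14 genes for ALK, EML4 and the adaptors that bind activated receptors, 2 were called higher and 2 lower. The higher count was 1 with the batch as a block, 0 without TRI-611 replicate 1 or 3 or DMSO replicate 2, and 1 without TRI-611 replicate 2 or DMSO replicate 1, and the lower count was 1 without TRI-611 replicate 3. The one adaptor call that held without any 1 library was IRS2, the insulin receptor substrate, at 34.9 ± 0.607 TPM with TRI-611 and 48.9 ± 4.08 TPM with DMSO (SD, n = 3 each; log2 change -0.47). The RAS, RAF, MEK and ERK genes themselves gave 0 calls of 13 in limma, with 2 at an unadjusted p under 0.05 and log2 changes from -0.18 to 0.13.

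Some of the genes described below carry a short match to a transcription factor motif just upstream of their start, and 6 promoters are shown here, chosen because they hold one. Each line gives the 250 bases before the annotated start from RefSeq (GRCh38.p14), 5′ to 3′ on the gene's own strand. Capitals mark the motif, which is GTAAACA, the core site bound by FOXO factors, in the first 4 genes, all higher with TRI-611, and TGANTCA, the AP-1 site, in CXCL8 and SPRED3, both lower.
HBP1 (chr7:107168753-107169002, plus strand): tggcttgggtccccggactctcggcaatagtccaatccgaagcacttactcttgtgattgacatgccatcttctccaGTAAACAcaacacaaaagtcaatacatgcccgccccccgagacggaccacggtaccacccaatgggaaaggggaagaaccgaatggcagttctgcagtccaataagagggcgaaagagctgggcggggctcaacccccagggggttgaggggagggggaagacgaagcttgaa
TCP11L2 (chr12:106302483-106302732, plus strand): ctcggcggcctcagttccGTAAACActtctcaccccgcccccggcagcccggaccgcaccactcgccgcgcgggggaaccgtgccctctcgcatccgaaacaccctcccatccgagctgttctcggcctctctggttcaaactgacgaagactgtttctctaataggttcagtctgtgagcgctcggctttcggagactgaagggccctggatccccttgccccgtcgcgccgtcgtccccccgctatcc
BCL2L11 (chr2:111120664-111120913, plus strand): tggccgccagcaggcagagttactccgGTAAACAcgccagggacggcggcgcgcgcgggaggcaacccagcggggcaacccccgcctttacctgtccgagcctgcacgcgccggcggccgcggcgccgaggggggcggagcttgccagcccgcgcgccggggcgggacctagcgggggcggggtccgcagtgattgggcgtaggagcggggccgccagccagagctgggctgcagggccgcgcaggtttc
TXNIP (chr1:145996580-145996829, minus strand): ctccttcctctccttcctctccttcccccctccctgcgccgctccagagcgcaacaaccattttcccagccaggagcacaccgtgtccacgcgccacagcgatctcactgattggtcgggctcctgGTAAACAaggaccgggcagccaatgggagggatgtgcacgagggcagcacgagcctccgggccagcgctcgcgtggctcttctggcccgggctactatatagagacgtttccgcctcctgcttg
CXCL8 (chr4:73740319-73740568, plus strand): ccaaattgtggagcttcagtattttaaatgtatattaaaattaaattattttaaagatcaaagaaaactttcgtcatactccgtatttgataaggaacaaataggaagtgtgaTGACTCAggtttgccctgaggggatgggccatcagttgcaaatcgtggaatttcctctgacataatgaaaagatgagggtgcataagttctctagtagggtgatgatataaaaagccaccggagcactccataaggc
SPRED3 (chr19:38389541-38389790, plus strand): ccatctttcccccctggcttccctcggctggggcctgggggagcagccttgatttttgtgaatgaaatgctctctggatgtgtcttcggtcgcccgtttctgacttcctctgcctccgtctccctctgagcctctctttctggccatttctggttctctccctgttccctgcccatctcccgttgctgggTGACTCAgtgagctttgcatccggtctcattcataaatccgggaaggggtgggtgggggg
The GTAAACA match begins 173 bases before the start in HBP1, 232 in TCP11L2, 223 in BCL2L11 and 124 in TXNIP, and the AP-1 match 137 bases before the start in CXCL8 and 60 in SPRED3. Over windows from 250 bases before to 50 after the start, searched on both strands, GTAAACA lay in 931 of 27305 promoters of the RefSeq table (3.41%). Of the 12528 tested protein-coding genes 10145 could be matched to a window, and 2.21% of these held it. The share was 6.28% (36 of 573) among genes called higher and 1.84% (15 of 816) among genes called lower. Restricted to genes that moved by at least 0.5 on the log2 scale, it was 8.59% (11 of 128) and 1.69% (2 of 118). TGANTCA, which reads alike on both strands, was found in 4.54% of the higher genes and 5.27% of the lower ones, against 4.49% of all tested genes, or in 6.25% and 8.47% of those that moved by at least 0.5. The E-box CACGTG, bound by MYC and its relatives, was in 13.3% of higher and 14.0% of lower genes against 10.3% of all. The CRE site TGACGTCA was in 4.01% and 2.57% against 3.26%, and the CArG box of serum response factor in 1.22% and 1.23% against 1.05%. Among higher and lower genes that moved by at least 0.5, the E-box was in 17.2% and 14.4% and the CRE site in 3.91% and 3.39%. The CArG box was in 2.34% (3 of 128) and 0.847% (1 of 118) of them. Many of the leading genes hold no such match: GTAAACA was not found in the windows of BMF, KLHL24, CCNG2, PDK4 or CDKN1B, nor TGANTCA in those of DUSP6, SPRY4, PHLDA1, HBEGF, EREG or CSF2, whereas the higher genes KLHL24, IL6R, BBC3 and FOXO4 hold TGANTCA. These shares are descriptions with no test, and a match is no evidence that a factor was bound.

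The clearest falls were in the genes that ERK switches on to restrain itself. Of the 10 genes of a MAPK output signature 9 were lower, and 8 of these held without any 1 library. Their median log2 change was -0.85 (-0.87, -0.86 and -0.86 within batches 1, 2 and 3), against 0.01 for all genes tested. This list overlaps the phosphatase, Sprouty and ETS lists below, and its fall in NCI-H2228 was known when the lists were set. DUSP6, a phosphatase that removes phosphate from ERK (ENSG00000139318, chromosome 12, 89347232 to 89353271, minus strand), was at 3.23, 3.77 and 3.40 TPM in TRI-611 libraries and 15.6, 14.1 and 15.8 TPM in DMSO libraries. The groups are far apart and all 3 treated libraries are low. The log2 change was -1.86 (SE 0.0837, limma adjusted p = 1.1e-05), the largest fall among protein-coding genes averaging 2 TPM or more. Groups that do not overlap were seen in 31.4% of all genes tested, so separation alone is common in these 6 libraries.

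Among the 11 dual-specificity phosphatases tested, 5 were lower and 2 higher, and 4 and 1 of these held without any 1 library. Of the 11, 1 passed the filter only through 1 group, so its change is partly set by the filter. DUSP4, which acts on ERK in the nucleus, fell to 42.2, 41.7 and 41.4 TPM with TRI-611, against 89.0, 83.1 and 87.1 TPM with DMSO (log2 change -1.03, limma adjusted p = 7.5e-06). DUSP5 (log2 change -0.54) and DUSP7 (-0.53) fell less. In the opposite direction, DUSP10, a phosphatase that prefers JNK and p38, averaged 16.7 ± 0.553 TPM with TRI-611 and 8.66 ± 0.0533 TPM with DMSO (SD, n = 3 each), a log2 change of 0.87 (limma adjusted p = 6.91e-05). Phosphatases of the same family thus moved both ways within 3 h.

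The Sprouty and Spred proteins block RAS activation downstream of receptors, and 8 of 13 genes of that list were lower (7 without any 1 library; median log2 change -0.35). SPRY4 was at 4.86, 4.26 and 4.93 TPM in TRI-611 libraries and 16.6, 17.0 and 17.0 TPM in DMSO libraries. Its log2 change was -1.66 (SE 0.0739, limma adjusted p = 1.1e-05), and the DMSO libraries hardly differ from each other. SPRED3, whose promoter is shown above, was at 2.53, 2.29 and 3.14 TPM with TRI-611 and 10.4, 10.2 and 11.1 TPM with DMSO (log2 change -1.67, limma adjusted p = 5.39e-05). All 3 SPRED genes fell, SPRED1 by 0.65 and SPRED2 by 0.30 on the log2 scale, as did SPRY2 by 0.67. The adaptor inhibitor SH2B3 fell by 0.54, and ERRFI1, which blocks the kinase domain of EGFR, by 0.37 (348 ± 25.8 TPM with TRI-611 and 450 ± 18.1 TPM with DMSO, SD, n = 3 each). Further members of the output signature were PHLDA1, at 63.6 ± 4.30 TPM with TRI-611 and 176 ± 6.19 TPM with DMSO (SD, n = 3 each; log2 change -1.45), and the cyclin gene CCND1 (219 ± 8.85 and 349 ± 9.05 TPM, log2 change -0.67).

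Transcription factors of the AP-1 family act at the end of the cascade, and 4 of 11 tested were lower, each in every fit without 1 library, and 1 was higher, or 0 with the batch as a block and without TRI-611 replicate 1 or 2 or DMSO replicate 2. FOSL1, a FOS relative stabilised by ERK, was at 413, 431 and 439 TPM with TRI-611 and 891, 916 and 873 TPM with DMSO, a log2 change of -1.06 (SE 0.0344, limma adjusted p = 3.63e-06). JUN (log2 change -0.70), MAFF (-0.62) and FOSL2 (-0.27) fell too. FOS measured 6.06 ± 1.35 TPM with TRI-611 and 9.27 ± 1.32 TPM with DMSO (SD, n = 3 each) and missed the threshold (log2 change -0.55, limma adjusted p = 0.0525, or 0.0145 with the batch as a block). EGR1, the best known immediate early target of ERK, was at 32.5, 31.5 and 30.4 TPM with TRI-611 and 31.4, 33.3 and 35.0 TPM with DMSO, and these groups overlap (log2 change -0.08, limma adjusted p = 0.436). Of 7 EGR, NR4A and IER genes 3 were lower and 1 higher. The early genes IER5 (-0.47) and IER3 (-0.34) were lower, whereas the nuclear receptor gene NR4A2 was higher, at 5.48 ± 0.586 TPM with TRI-611 and 1.91 ± 0.166 TPM with DMSO (SD, n = 3 each; log2 change 1.16).

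ETS factors, several of which ERK phosphorylates, split as well, with 3 of 11 lower and 1 higher. The lower count was 2 with the batch as a block and without any single library other than TRI-611 replicate 2. It was also 2 without mitochondrially encoded genes and under quantile normalization, and 4 with median-ratio scaling. ETV5 fell by 0.48 and EHF by 0.29 on the log2 scale. ELF3, an epithelial member of the family, rose to 109 ± 4.68 TPM with TRI-611, against 55.8 ± 1.76 TPM with DMSO (SD, n = 3 each, log2 change 0.95, limma adjusted p = 1.57e-05). Of 10 Krüppel-like factors 4 were higher and 2 lower, or 1 lower without any single library other than TRI-611 replicate 2 and under each of the 3 other scalings. KLF10 fell by 0.50, and KLF3 (log2 change 0.43), KLF5 (0.43) and KLF9 (0.46) rose.

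**Figure D2:**
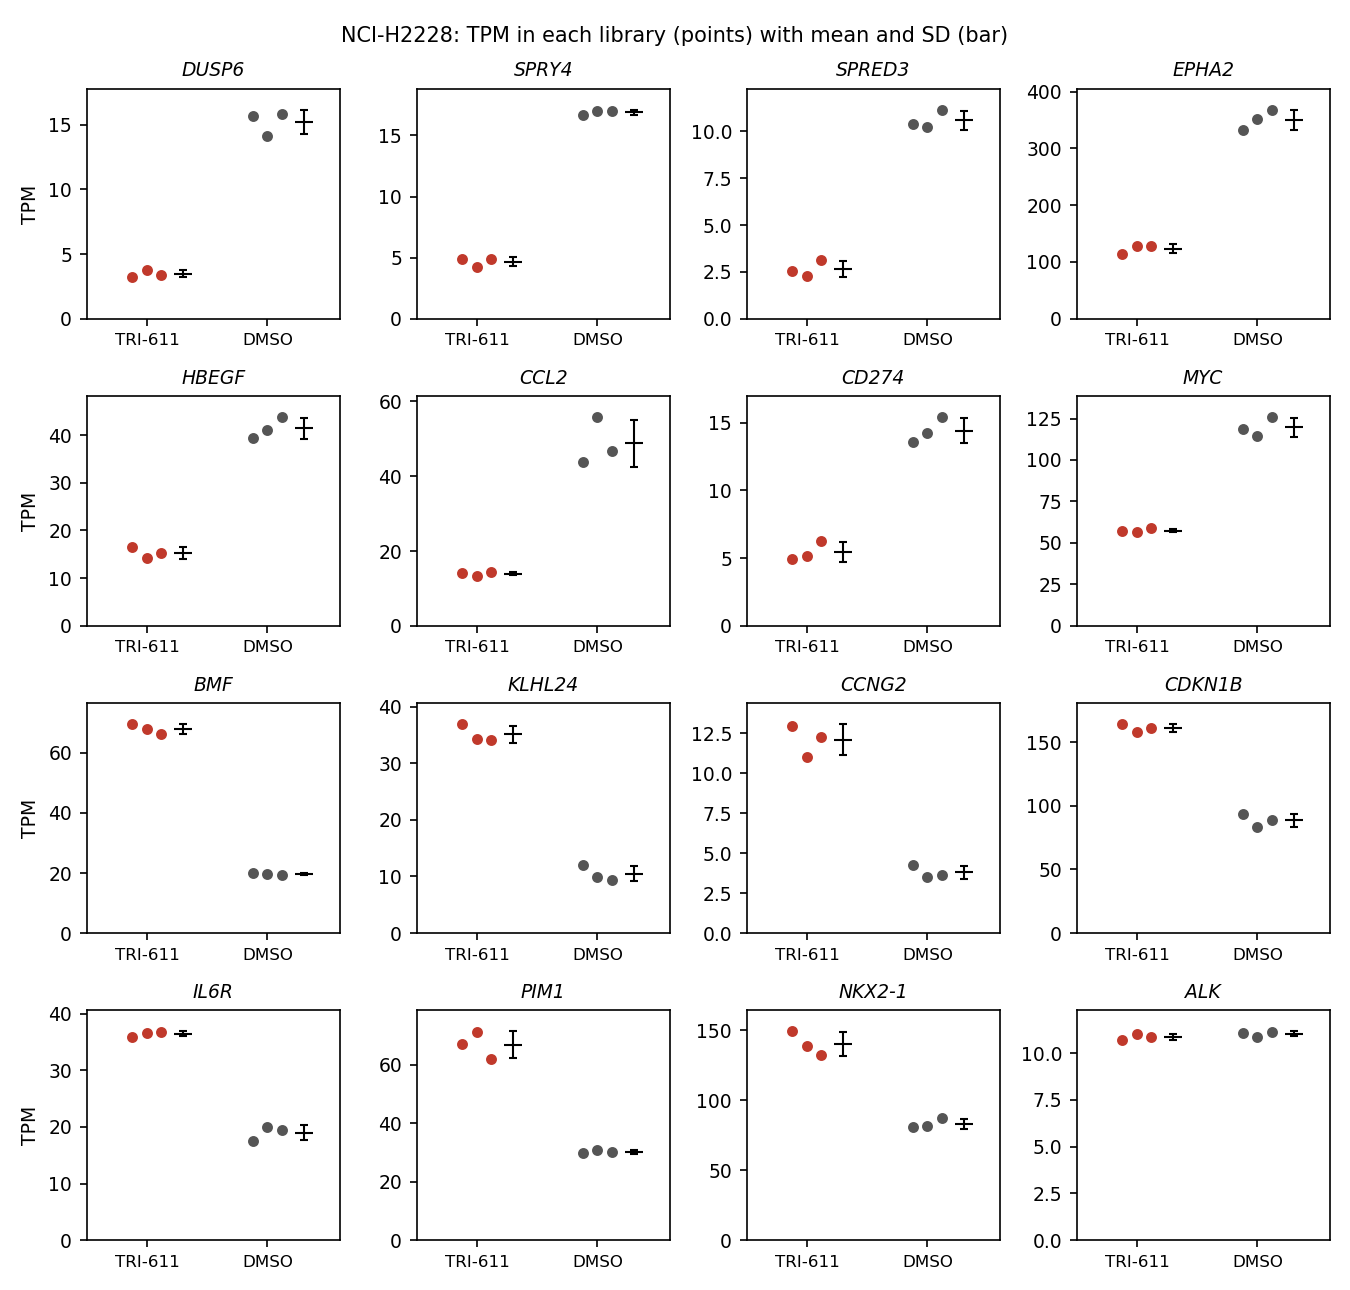
TPM of 16 genes in the 3 TRI-611 libraries (red points, left) and the 3 DMSO libraries (grey points, right) of NCI-H2228, with the mean and SD of each group as a black bar. Every vertical axis starts at 0. In 15 of the genes no TRI-611 library reaches into the DMSO range, while the points of ALK overlap between 10.7 and 11.1 TPM.

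Ligands that act on neighbouring receptors were lower in part. Of 10 EGFR and FGFR ligand genes 6 fell, 5 of them in every fit without 1 library (median log2 change -0.38). HBEGF, a membrane-anchored EGFR ligand, was at 16.5, 14.1 and 15.2 TPM with TRI-611 and 39.5, 41.1 and 43.8 TPM with DMSO (log2 change -1.38, limma adjusted p = 1.64e-05). The EGFR ligands EREG (log2 change -1.02), AREG (-0.66) and TGFA (-0.65) also fell, and FGF2 fell by 0.28. AREG, the most abundant of them, averaged 114 ± 2.16 TPM with TRI-611 and 181 ± 9.23 TPM with DMSO (SD, n = 3 each). Of 13 genes for receptor tyrosine kinases that can stand in for ALK 2 were called higher, but 0 without DMSO replicate 1 or 2 and 1 without any other single library, and 5 without mitochondrially encoded genes and 4 under quantile normalization. EGFR itself averaged 127 ± 4.82 TPM with TRI-611 and 143 ± 7.18 TPM with DMSO (SD, n = 3 each; log2 change -0.17, limma adjusted p = 0.0585), and MET 264 ± 13.8 and 255 ± 5.81 TPM (log2 change 0.05).

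The Eph receptor gene EPHA2 was at 114, 127 and 129 TPM in TRI-611 libraries and 332, 351 and 367 TPM in DMSO libraries. That is a log2 change of -1.50 (SE 0.0557, limma adjusted p = 4.95e-06), and all 3 DMSO libraries lie far above the treated ones. Ephrins, the ligands of this family, moved in opposite directions: EFNB2 averaged 116 ± 3.40 TPM with TRI-611 and 182 ± 6.61 TPM with DMSO (log2 change -0.64), and EFNA1, a ligand of EPHA2, 26.6 ± 0.982 and 13.9 ± 1.31 TPM (SD, n = 3 each; log2 change 0.89, limma adjusted p = 0.000202). The other 7 genes of the Eph list were not called.

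MYC, which drives cell growth, was at 56.9, 56.7 and 58.8 TPM with TRI-611 and 118, 115 and 126 TPM with DMSO, a log2 change of -1.04 (SE 0.0444, limma adjusted p = 1.01e-05), and no library of one group comes near the other. Its antagonists, which compete for the partner MAX, were on the other side: of 9 genes in the network 5 were higher and 2 lower. That count was 2 without TRI-611 replicate 2 and 3 when either other TRI-611 library, or DMSO replicate 1 or 2, was left out. The antagonists that held throughout were MXD1 (9.09 ± 0.407 TPM with TRI-611 and 5.74 ± 0.716 TPM with DMSO, log2 change 0.59) and MXD4 (21.0 ± 1.06 and 15.9 ± 0.167 TPM, 0.38; SD, n = 3 each). Ribosome biogenesis, a classic programme of MYC, was lower in 28 of 35 genes, 21 of them in every fit without 1 library and 25 with the batch as a block. The median log2 change was -0.33, and -0.30, -0.30 and -0.31 within batches 1, 2 and 3. RRS1, which assembles the large subunit, had the largest fall (89.9 ± 5.84 TPM with TRI-611 and 173 ± 2.38 TPM with DMSO, SD, n = 3 each; log2 change -0.94), followed by the RNA polymerase I subunit POLR1B (-0.59), WDR43 (-0.58), BYSL (-0.57) and NOP2 (-0.56).

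Metabolic lists moved less. Of all genes tested, 4.80% were higher and 6.40% lower. Nucleotide synthesis was lower in 6 of 19 genes (4 in every fit), led by CTPS1 (log2 change -0.38), PPAT (-0.37) and MTHFD2 (-0.36), which make CTP, start purine synthesis and feed it 1-carbon units. Glycolysis was lower in 8 of 21 genes, or 4 without TRI-611 replicate 1 and 5 without TRI-611 replicate 3 or without DMSO replicate 2 or 3. Its first steps carried the larger changes: the glucose transporter SLC2A3 averaged 13.0 ± 0.630 TPM with TRI-611 and 23.2 ± 1.70 TPM with DMSO (log2 change -0.79), and the hexokinase HK2 35.9 ± 0.879 and 57.9 ± 4.00 TPM (SD, n = 3 each; -0.67). Translation initiation factors were lower in 5 of 26 and higher in 2; the lower count was 3 when TRI-611 replicate 1, or DMSO replicate 1 or 2, was left out, and the higher count was 1 when TRI-611 replicate 1 or 3, or DMSO replicate 2, was left out. The lower count was also 3 without mitochondrially encoded genes and under quantile normalization. EIF5 (-0.35) and the translation repressor EIF4EBP2 (0.26) held throughout. Of 23 genes of cholesterol and fatty acid synthesis 3 were lower, among them FASN (-0.44), which held in every fit, and of 31 proteasome subunits 5 were lower. That was 1 subunit, PSMD12 (-0.27), without TRI-611 replicate 1, 2 subunits without DMSO replicate 1 or 2 or under quantile normalization, and 3 without TRI-611 replicate 2 or without mitochondrially encoded genes.

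FOXO targets rose in large part. Of 33 genes for FOXO factors and their targets 18 were higher and 1 lower, with 17 and 1 in every fit without 1 library, against 4.80% and 6.40% of all genes tested. Their median log2 change was 0.35, and 0.44, 0.36 and 0.29 within batches 1, 2 and 3. This list shares rising members with lists below, such as SESN3, GABARAPL1, BCL2L11, BBC3 and CDKN1B. The counts of the mTORC1, autophagy, BH3-only and CDK inhibitor lists are therefore not separate from it. It was also set with earlier results of these data known. KLHL24, which regulates keratin turnover, was at 36.9, 34.3 and 34.1 TPM in TRI-611 libraries and 12.0, 9.96 and 9.45 TPM in DMSO libraries (log2 change 1.66, limma adjusted p = 1.91e-05). CCNG2, an atypical cyclin that slows the cell cycle, was at 13.0, 11.0 and 12.3 TPM with TRI-611 and 4.28, 3.52 and 3.64 TPM with DMSO (log2 change 1.45, limma adjusted p = 6.63e-05). All 3 treated libraries lie above every control library for each gene. The ubiquitin ligase gene FBXO32 (atrogin-1) averaged 64.1 ± 2.61 TPM with TRI-611 and 30.8 ± 1.43 TPM with DMSO (SD, n = 3 each; log2 change 1.03), and PDK4, which shuts pyruvate out of the mitochondrion, 3.71 ± 0.567 and 0.976 ± 0.140 TPM (1.25).

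Several genes that damp PI3K and mTORC1 signalling also rose. PIK3IP1, a membrane inhibitor of PI3K, averaged 3.53 ± 0.196 TPM with TRI-611 and 1.38 ± 0.176 TPM with DMSO (SD, n = 3 each; log2 change 0.93). FOXO1 (0.51), FOXO3 (0.27) and FOXO4 (0.42) were themselves higher, as were TXNIP (0.47) and HBP1 (1.06), whose promoters are shown above. IRS2 was the single FOXO list member that fell. Among 14 mTORC1 inhibitors and amino acid sensors 4 were higher and 1 lower. The list member CASTOR2 was at 37.3, 44.0 and 40.6 TPM with TRI-611 and 14.5, 13.9 and 16.3 TPM with DMSO (log2 change 1.39, limma adjusted p = 2.96e-05). CASTOR2 has near-identical copies nearby on chromosome 7, so which copy these reads came from is uncertain. SESN3 (log2 change 0.88), TSC1 (0.45) and FLCN (0.38) rose, and SESN2, a stress-induced relative of SESN3, fell by 0.33. In the autophagy and lysosome list 3 of 24 genes rose, GABARAPL1 (0.54), ATG14 (0.54) and ULK1 (0.25), and the count was 5 without mitochondrially encoded genes and 6 under quantile normalization.

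Genes of the BCL2 family changed on both sides of the balance between death and survival. BMF, a BH3-only protein that neutralises BCL2 survival proteins (ENSG00000104081, chromosome 15, 40087890 to 40108892, minus strand), was at 69.5, 68.0 and 66.2 TPM in TRI-611 libraries and 20.0, 19.7 and 19.4 TPM in DMSO libraries. With a log2 change of 1.74 (SE 0.0428, limma adjusted p = 7.87e-07) it was the largest rise among protein-coding genes averaging 2 TPM or more, and the spread within each group is small. Of 9 BH3-only genes 3 rose and 1 fell. BCL2L11, which encodes BIM, was at 16.6, 15.9 and 17.5 TPM with TRI-611 and 11.9, 10.3 and 11.2 TPM with DMSO (log2 change 0.54, limma adjusted p = 0.00216). BBC3, which encodes PUMA, rose by 0.85 on the log2 scale (4.96 ± 0.297 TPM with TRI-611 and 2.31 ± 0.344 TPM with DMSO, SD, n = 3 each), while PMAIP1, which encodes NOXA, fell by 0.28. Among 6 survival genes and effectors, BCL2L1 averaged 271 ± 10.3 TPM with TRI-611 and 419 ± 4.59 TPM with DMSO (log2 change -0.63), and MCL1 201 ± 6.38 and 285 ± 2.29 TPM (SD, n = 3 each; -0.50). The effector BAK1 fell by 0.33.

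Inhibitors that hold cells before DNA replication changed in both directions. CDKN1B, the inhibitor p27, was at 164, 158 and 161 TPM in TRI-611 libraries and 93.2, 83.3 and 89.0 TPM in DMSO libraries (log2 change 0.86, limma adjusted p = 2.3e-05), and its relative CDKN1C averaged 23.8 ± 0.645 and 13.5 ± 0.772 TPM (SD, n = 3 each; 0.77). CDKN1A, the inhibitor p21, went the other way, at 65.1, 63.5 and 56.4 TPM with TRI-611 and 104, 106 and 105 TPM with DMSO (log2 change -0.76, limma adjusted p = 0.000103). Besides the cyclin gene CCND1, its relative CCND3 fell by 0.42 and CDKN2C rose by 0.29, so that 3 of 9 genes of this list were higher and 3 lower, each in every fit. Few genes of DNA replication moved: 3 of 27 were lower, or 1 without TRI-611 replicate 3 or DMSO replicate 1 or 2 and 5 with median-ratio scaling, and 1 was higher. Of all genes tested, 6.40% were lower and 4.80% higher. CCNE1 (-0.43) and E2F2 (0.54) held in every fit. Of 28 genes of G2 and mitosis 7 were higher and 2 lower. The higher count was 2 without TRI-611 replicate 1 or 3 and 3 without DMSO replicate 1 or 2, and the 2 that held were CENPF (0.44) and TTK (0.49). The p53 target list gave 4 higher and 4 lower of 19, among them TP53INP1 (log2 change 1.02) and the nuclease gene AEN (-1.09).

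**Figure D3:**
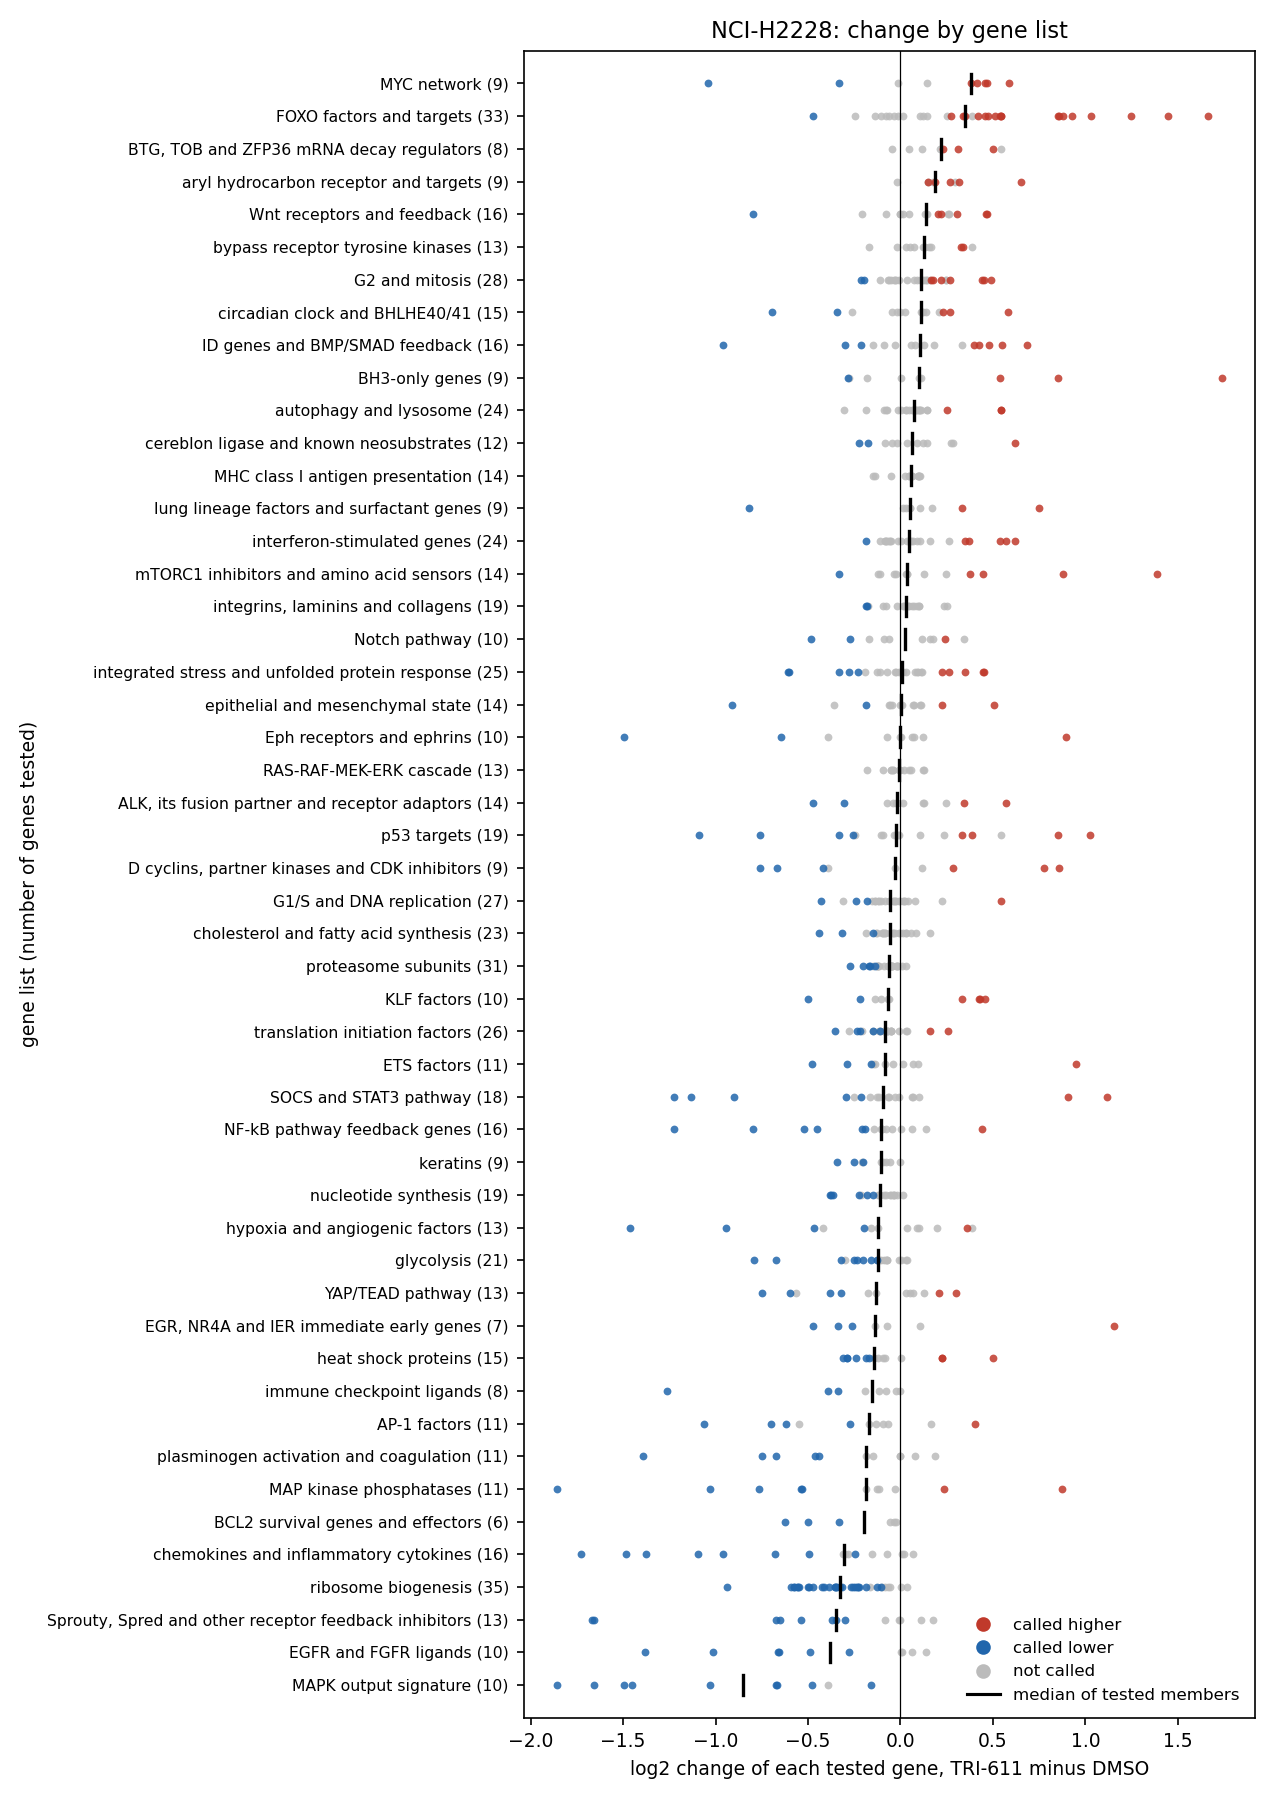
Log2 change, TRI-611 minus DMSO, of each tested gene of NCI-H2228 in 50 gene lists, ordered by the median (black bar) from highest at the top to lowest at the bottom; the number of genes tested stands in brackets. Red points were called higher, blue lower and grey neither. The MAPK output signature is at the bottom with a median of -0.85, and 28 of 35 ribosome biogenesis genes are blue.

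Secreted inflammatory signals were lower in part. Of 16 chemokine and cytokine genes tested 8 fell, each in every fit without 1 library, and 8 were not called (median log2 change -0.31). CCL2, which recruits monocytes, was at 14.0, 13.4 and 14.4 TPM in TRI-611 libraries and 43.9, 55.8 and 46.7 TPM in DMSO libraries (log2 change -1.73, limma adjusted p = 1.71e-05). CXCL8, a neutrophil attractant, was at 19.0, 19.7 and 20.9 TPM with TRI-611 and 45.0, 43.8 and 41.7 TPM with DMSO (log2 change -1.09). CSF2 (log2 change -1.49) and IL6 (-1.37) fell as well at low levels. CSF2 averaged 1.48 ± 0.802 TPM with TRI-611 and 5.72 ± 0.546 TPM with DMSO, and IL6 0.503 ± 0.212 and 2.90 ± 0.626 TPM (SD, n = 3 each), so that IL6 passed the filter only through its DMSO libraries.

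Regulators of NF-kB and of JAK-STAT signalling followed. NF-kB feedback genes were lower in 6 of 16 and higher in 1, a call lost with the batch as a block and whichever single library was left out, with BCL3 (log2 change -1.22), TNFAIP3 (-0.80), ICAM1 (-0.52) and NFKBIE (-0.45) in every fit. SOCS proteins are inhibitors that STAT3 induces against JAK kinases. SOCS3 was at 62.8, 65.4 and 58.8 TPM with TRI-611 and 115, 113 and 123 TPM with DMSO (log2 change -0.90, limma adjusted p = 3.19e-05), and SOCS1 averaged 10.5 ± 0.810 and 24.4 ± 3.31 TPM (SD, n = 3 each; -1.13). Of 18 genes in the SOCS and STAT3 list 5 were lower, including STAT3 (-0.21), and 2 higher. The receptor gene IL6R was at 36.0, 36.6 and 36.8 TPM with TRI-611 and 17.5, 20.1 and 19.4 TPM with DMSO (log2 change 0.91, limma adjusted p = 5.68e-05). PIM1, a survival kinase gene usually counted as a STAT target, rose too, with 66.9 ± 4.61 TPM against 30.3 ± 0.652 TPM (SD, n = 3 each; log2 change 1.12), opposite to the SOCS genes.

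Immune recognition genes showed a narrow change. CD274, which encodes the checkpoint ligand PD-L1, was at 4.96, 5.13 and 6.28 TPM in TRI-611 libraries and 13.6, 14.3 and 15.4 TPM in DMSO libraries (log2 change -1.26, limma adjusted p = 0.000127). It was 1 of 3 checkpoint ligand genes of 8 that fell, with PVR (-0.39) and TNFSF9 (-0.34). MHC class I antigen presentation gave 0 calls of 14 in limma, with 6 at an unadjusted p under 0.05 and log2 changes from -0.15 to 0.11; 1 was higher without mitochondrially encoded genes or under quantile normalization and 2 lower with median-ratio scaling. Interferon-stimulated genes were higher in 5 of 24 and lower in 1, a call lost with the batch as a block and whichever single library was left out. The higher count was 3 when TRI-611 replicate 1 or 3, or DMSO replicate 1 or 2, was left out. STAT2, a transducer of interferon signals, averaged 17.8 ± 0.731 TPM with TRI-611 and 11.3 ± 0.757 TPM with DMSO (SD, n = 3 each; log2 change 0.62), and IFIT2 and IFIT3 rose by 0.57 and 0.37.

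Surface proteases and clotting factors were lower in 5 of 11 genes, all in every fit. Thrombomodulin (THBD), which turns thrombin into an anticoagulant, was at 154, 158 and 171 TPM with TRI-611 and 423, 408 and 441 TPM with DMSO (log2 change -1.39, limma adjusted p = 3.63e-06). Tissue factor (F3, log2 change -0.75), the urokinase gene PLAU (-0.46), its receptor PLAUR (-0.68) and PLAT (-0.44) fell together with it. Hypoxia and angiogenesis genes were lower in 4 of 13 and higher in 1, or 3 without DMSO replicate 3, without mitochondrially encoded genes or with median-ratio scaling and 2 under quantile normalization, with ANGPTL4, an inhibitor of lipoprotein lipase, at 14.1 ± 0.573 TPM with TRI-611 and 40.5 ± 1.01 TPM with DMSO (log2 change -1.46), VEGFA at 38.9 ± 0.755 and 75.9 ± 4.05 TPM (-0.94) and HIF1A at 555 ± 29.8 and 767 ± 30.8 TPM (SD, n = 3 each; -0.47). The adhesion adaptor TNS4 was at 120, 116 and 119 TPM with TRI-611 and 307, 323 and 329 TPM with DMSO (log2 change -1.43, limma adjusted p = 7.87e-07). A transcript without a protein, AC018629.1, that lies beside TNS4 on the same strand fell by 1.27, and reads of the pair may not be separable.

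Lineage and state genes changed within 3 h as well. NKX2-1, the lung lineage factor, was at 149, 139 and 132 TPM in TRI-611 libraries and 80.6, 81.7 and 87.0 TPM in DMSO libraries (log2 change 0.75, limma adjusted p = 8.57e-05). Its partners split, FOXA1 rising by 0.33 and FOXA2 falling to 17.9 ± 0.735 TPM with TRI-611, against 32.2 ± 0.716 TPM with DMSO (SD, n = 3 each; log2 change -0.82). The other 6 tested lineage and surfactant genes were not called, and 10 more did not reach the filter. SNAI2, a repressor of epithelial genes, averaged 25.5 ± 1.88 TPM with TRI-611 and 48.7 ± 1.57 TPM with DMSO (SD, n = 3 each; log2 change -0.91), while the tight junction genes OCLN (0.50) and CLDN4 (0.22) rose. These were 2 higher and 2 lower calls among 14 epithelial and mesenchymal genes, or 1 lower with the batch as a block and without TRI-611 replicate 1 or 2 or DMSO replicate 1 or 2, and likewise under quantile normalization. Keratins were lower in 3 of 9, KRT19 by 0.25 on the log2 scale. The keratin count was 2 without TRI-611 replicate 2 or 3 or DMSO replicate 2.

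Developmental pathways gave mixed calls, beside 4.80% higher and 6.40% lower among all genes tested. The BMP antagonist NOG fell by 0.96 and ID1 by 0.30, while ID2 (log2 change 0.68), ID3 (0.40) and TGIF1 (0.42) rose, among 5 higher and 3 lower of 16; the higher count was 3 when TRI-611 replicate 1 or DMSO replicate 2 was left out. Wnt receptors and feedback genes were higher in 5 of 16, 3 with the batch as a block, and 2 or 3 when any TRI-611 library, or DMSO replicate 1 or 2, was left out. Of these 16, 1 passed the filter only through 1 group. The frizzled receptor gene FZD1 fell by 0.80 and FZD5 rose by 0.47. Of 13 YAP/TEAD genes 4 were lower, including the coactivator gene WWTR1 (-0.60) and ANKRD1 (-0.38), and 2 were higher, or 1 with the batch as a block and without TRI-611 replicate 2 or 3 or DMSO replicate 1 or 2, and 4 under quantile normalization, of which LATS2 (0.30) held in every fit. Notch genes gave 1 higher and 2 lower of 10, and the higher call was lost without TRI-611 replicate 1 or 3 or DMSO replicate 1 or 2. The lower count was 1 without TRI-611 replicate 1 or 2 or DMSO replicate 1, and NOTCH1 (-0.48) held in every fit.

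Stress programmes were mixed too. Integrated stress and unfolded protein response genes were higher in 5 of 25 and lower in 5, the lower count being 3 with the batch as a block and again when TRI-611 replicate 1 or 3, or DMSO replicate 1 or 3, was left out. PPP1R15A (0.45) and HERPUD1 (0.45) rose and TRIB3 fell by 0.60. Heat shock genes were lower in 6 of 15 and higher in 3, with HSPA8 at -0.29 and DNAJB4 at 0.50. Aryl hydrocarbon receptor genes were higher in 5 of 9, with AHR at 0.32, CYP1B1 at 0.27 and CYP1A1 at 0.65. Among mRNA decay regulators 3 of 8 rose, BTG1 by 0.50, and 5 did without mitochondrially encoded genes or under quantile normalization. Clock genes gave 3 higher and 2 lower of 15; without any single library other than DMSO replicate 3 the higher count was 1, and without TRI-611 replicate 1 or DMSO replicate 2 the lower count was 1. Of these the period gene PER1 (0.58) and BHLHE40 (-0.69) held in every fit. Of 12 genes for the cereblon ligase and proteins it is known to degrade with glues, the kinase gene WEE1 rose by 0.62 and 2 fell, or 1 with the batch as a block and without any single library other than TRI-611 replicate 3, and likewise without mitochondrially encoded genes and under quantile normalization. Integrins, laminins and collagens gave 2 lower of 19, against 6.40% of all genes tested. The count was 0 without TRI-611 replicate 1 and 1 without TRI-611 replicate 3 or any DMSO library or under quantile normalization.

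The changes in NCI-H2228 were set against those in NCI-H3122 and SNU2535, lung cancer lines that received the same dose for the same time, by testing the difference between responses in limma over the genes that met the 1 TPM rule in each line of a pair. Within those lines 34.1% of 15311 genes (NCI-H3122) and 28.7% of 16252 genes (SNU2535) were called. Against NCI-H3122 the responses differed in 1988 of 13878 genes (14.3%), 741 with a positive difference (5.34%) and 1247 with a negative one (8.99%). Against SNU2535 they differed in 1547 of 14640 (10.6%), 1146 positive (7.83%) and 401 negative (2.74%). Positive differences made up 37.3% and 74.1% of these calls as deposited, but 55.9% and 55.5% under median-ratio scaling and 48.5% and 60.5% under quantile normalization.

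In the MAPK output signature, log2 changes were mostly less negative in NCI-H2228 than in either other line. In 9 of 10 of its genes the difference was positive against NCI-H3122 (median difference 0.56) and in 9 of 10 against SNU2535 (1.11). Related lists held differences both ways against NCI-H3122. There 6 phosphatase differences were positive and 1 negative of 11, and 7 and 1 of 11 in the Sprouty and Spred list. AP-1 factors gave 4 and 2 of 11, and EGFR and FGFR ligands 4 and 2 of 8. DUSP6 changed by -1.86 in NCI-H2228, -4.36 in NCI-H3122 and -4.24 in SNU2535 on the log2 scale, differences of 2.50 (SE 0.123, limma adjusted p = 6.68e-08) and 2.38 (SE 0.113, limma adjusted p = 9.85e-08). The treated level was 3.47 ± 0.275 TPM in NCI-H2228, 11.0 TPM on average in NCI-H3122 and 0.488 TPM in SNU2535, so the level that remained in NCI-H2228 lay between those of the other lines. With DMSO it averaged 15.2 TPM in NCI-H2228, 243 TPM in NCI-H3122 and 27.2 TPM in SNU2535. A lower starting level leaves less room to fall on the log2(TPM + 1) scale, and its part in these differences was not tested. SPRY4 gave differences of 2.38 and 2.49, and FOSL1 2.31 and 1.87. With TRI-611, SPRY4 averaged 0.595 TPM in NCI-H3122 and 0.162 TPM in SNU2535. SPRY4 in both other lines, and DUSP6 in SNU2535, passed the filter only through DMSO libraries, so those falls are partly set by the filter. AREG changed by -0.66 in NCI-H2228, -2.97 in NCI-H3122 and -2.80 in SNU2535 (differences 2.30 and 2.13). PHLDA1 differed by 1.03 against NCI-H3122 and 2.42 against SNU2535. For DUSP5 the differences were 2.51 and 1.23. EGR1, at -0.08 in NCI-H2228, changed by -2.63 in NCI-H3122 (difference 2.55, limma adjusted p = 2.67e-06) and by -1.25 in SNU2535 (difference 1.18, limma adjusted p = 0.0625, or 0.0184 with the batch as a block). Its DMSO libraries in SNU2535 were at 31.8, 29.4 and 65.2 TPM, so the size of that fall rests in part on DMSO replicate 3.

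**Figure D4:**
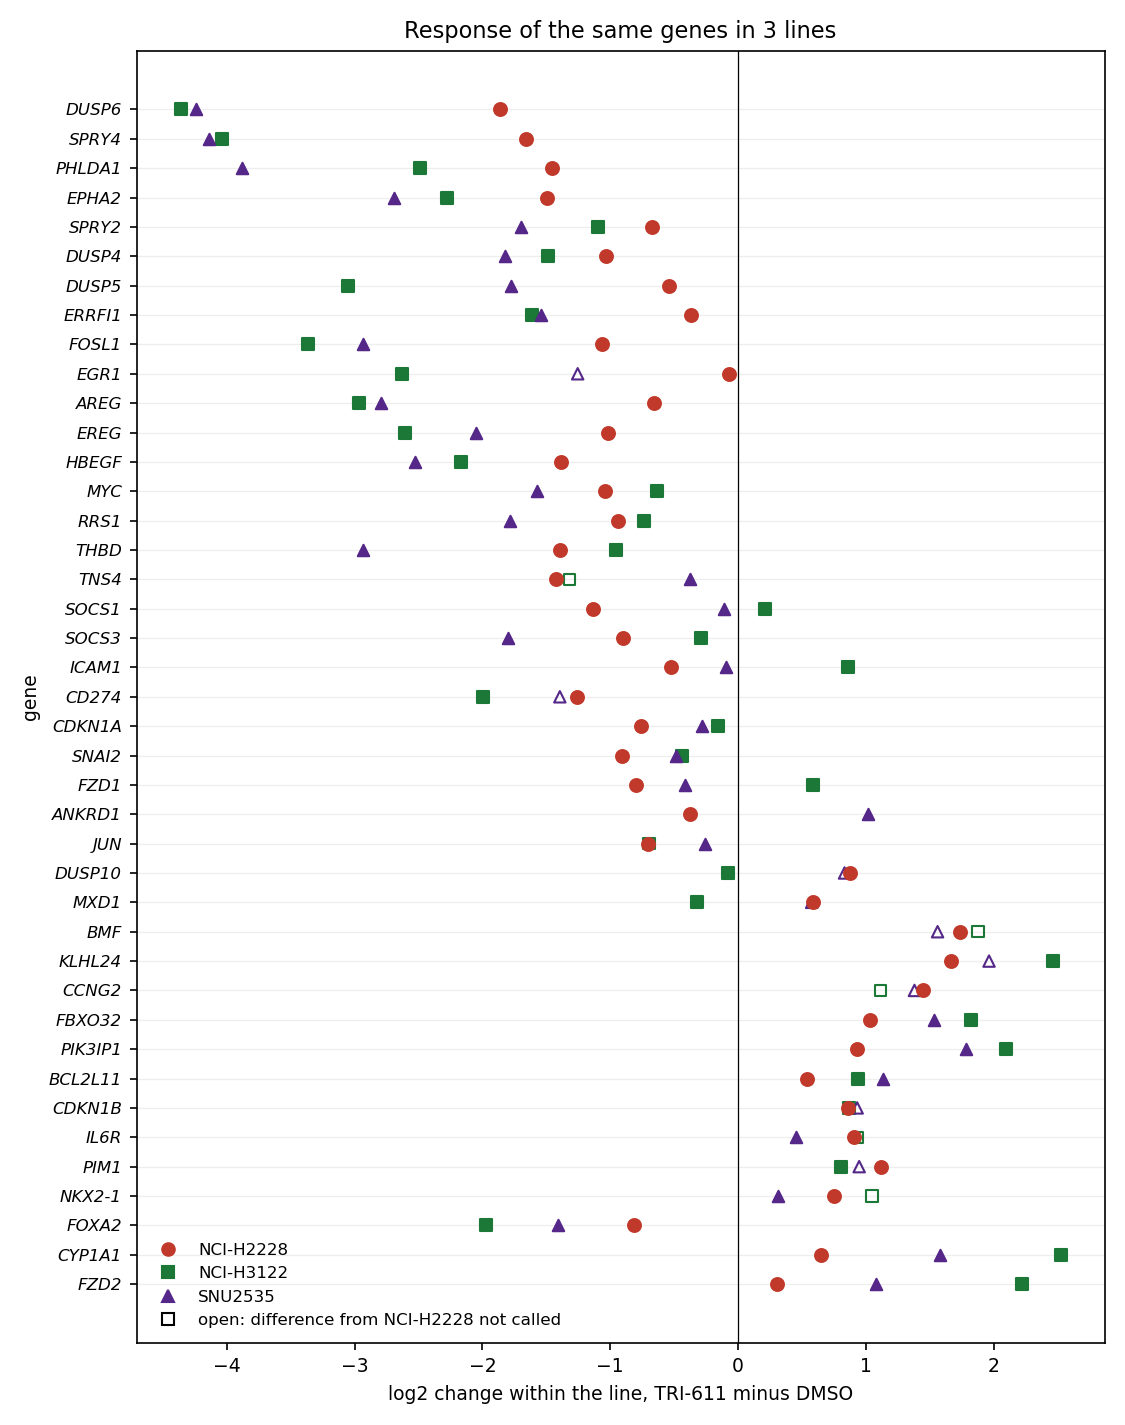
Log2 change, TRI-611 minus DMSO, of 41 genes in NCI-H2228 (red circles), NCI-H3122 (green squares) and SNU2535 (purple triangles). A filled square or triangle marks a response that limma called different from that of NCI-H2228 and an open one a difference that was not called; ANKRD1 was not tested in NCI-H3122. The filled marks of HBEGF, KLHL24, RRS1 and SOCS1 in NCI-H3122 and of FZD1 and CYP1A1 in SNU2535 lost that call under at least 1 alternative. The open marks of TNS4, BMF, CCNG2 and NKX2-1 in NCI-H3122 and of EGR1, BMF, KLHL24 and CCNG2 in SNU2535 gained one under at least 1. At the top DUSP6 lies at -1.86 in NCI-H2228 and beyond -4 in the other lines, whereas the BMF points lie between 1.56 and 1.88. SPRY4 in both other lines and DUSP6 in SNU2535 passed the filter only through DMSO libraries, and CYP1A1 in SNU2535 only through TRI-611 libraries.

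FOXO targets differed between lines in part. BMF changed by 1.74 in NCI-H2228, 1.88 in NCI-H3122 and 1.56 in SNU2535, and no difference was called (-0.14, SE 0.0516, limma adjusted p = 0.0961, and 0.18, SE 0.0629, limma adjusted p = 0.0958). CDKN1B changed by 0.86, 0.87 and 0.93 in that order (differences -0.01 and -0.07, limma adjusted p = 0.942 and 0.472). A p above the threshold does not show that these responses were equal. Other members rose less in NCI-H2228: FBXO32 differed by -0.79 and -0.50, PIK3IP1 by -1.17 and -0.86, and BCL2L11 by -0.40 and -0.59. Over the FOXO list 4 differences were positive and 11 negative of 31 against NCI-H3122, and 4 and 5 of 31 against SNU2535. Over all genes tested, 5.34% were positive and 8.99% negative against NCI-H3122, and 7.83% and 2.74% against SNU2535. Ribosome biogenesis fell less in NCI-H2228 than in SNU2535 in 18 of 35 genes (2 positive and 3 negative against NCI-H3122), and MYC fell more than in NCI-H3122 (difference -0.41) and less than in SNU2535 (0.53). Of 28 mitotic genes, 23 differences from NCI-H3122 were negative and 0 positive, against 8.99% and 5.34% of all genes tested. From SNU2535, 3 were negative and 2 positive, against 2.74% and 7.83% of all genes.

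Some genes moved further in NCI-H2228 than in 1 or both of the other lines. CDKN1A changed by -0.76 in NCI-H2228, -0.15 in NCI-H3122 and -0.28 in SNU2535 (differences -0.61 and -0.48, limma adjusted p = 0.000317 and 0.000785). SNAI2 likewise fell more than in either line (differences -0.47 and -0.42). ICAM1 fell by 0.52 in NCI-H2228 but changed by 0.86 in NCI-H3122, a difference of -1.38 (limma adjusted p = 4.5e-07), and by -0.10 in SNU2535 (difference -0.43). FZD1 changed by -0.80 in NCI-H2228 and 0.59 in NCI-H3122 (difference -1.39). SOCS1 differed by -1.02 from SNU2535, where it changed by -0.11. TNS4 fell by 1.43 in NCI-H2228 and 0.38 in SNU2535 (difference -1.05, limma adjusted p = 1.21e-06), and its difference from NCI-H3122 was not called (-0.11, limma adjusted p = 0.174). DUSP10 and MXD1, which rose in NCI-H2228, changed by -0.08 and -0.32 in NCI-H3122 (differences 0.95 and 0.91). RGCC, a cell cycle regulator, averaged 11.8 ± 0.990 TPM with TRI-611 and 3.55 ± 0.682 TPM with DMSO in NCI-H2228 (SD, n = 3 each; log2 change 1.50) and changed by -0.25 in NCI-H3122 (difference 1.75, limma adjusted p = 0.00153).

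The rest of the largest differences were in genes whose own log2 change in NCI-H2228 was small, 0.65 at most. Against NCI-H3122 they were the transcription factor gene ATOH8 (difference -2.05), the frizzled receptor gene FZD2 (-1.92), CYP1A1 (-1.87), the nucleoside transporter gene SLC29A3 (-1.67) and HEG1 (-1.65). ATOH8 passed the filter in NCI-H3122 only through TRI-611 libraries, so its difference is partly set by the filter. HEG1 itself, at 0.17 in NCI-H2228, passed the threshold there with the batch as a block (limma adjusted p = 0.0594, or 0.0432). CYP1A1 changed by 0.65 in NCI-H2228 and 2.52 in NCI-H3122. Against SNU2535 the negative side held DDIT4L (-1.57), ANKRD1 (-1.40), PPP1R3C (-1.35), HPDL (-1.26) and TMEM37 (-1.18), and the positive side RASSF10 (2.02), which changed by 0.32 in NCI-H2228 and -1.71 in SNU2535. ANKRD1, a YAP target, changed by -0.38 in NCI-H2228 and 1.02 in SNU2535.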

How the data were processed

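Poly-A RNA of 18 cultured libraries was sequenced with a kit that carries molecular identifiers, per the labels' protocols. The authors deposited 1 table of TPM for 57500 genes. Per the submitters' processing notes the tools included STAR 2.5.2b, fastp 0.23.1, DESeq2, Subread 1.5.2 and featureCounts on build GRCh38, in no stated role or order. The annotation and the strand setting were not given in the sources used here. Each column of the deposited TPM has the same sum, so depth is unknown and no counting interval can be given. Between 25188 and 25921 genes were above 0 per NCI-H2228 library.

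The filter asked for 1 TPM in no fewer than 3 of the 6 libraries; the gene just inside had 1.0005 TPM in the library that decides this and the gene just outside 0.9996 TPM. Of the kept genes 65 passed only through TRI-611 libraries and 38 only through DMSO libraries, and 30 of these were called. The test was limma 3.58.1 (R 4.3.3) on log2(TPM + 1), with trended and robust empirical Bayes, two-sided, and Benjamini-Hochberg adjustment over all genes tested. A fold change is on that scale, which understates changes of low genes. Genes with an adjusted p under 0.05 are called. Differences between lines are interaction contrasts over 12 libraries and share the NCI-H2228 libraries, so their values are given side by side. Gene types and coordinates are from GENCODE 29, which held 56898 of the table's IDs, and promoters from RefSeq.

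The labels give replicates of the same number the same batch, which pairs them. Unless the block is named, p-values here come from the fit without it. With the batch as a block, the limma adjusted p in NCI-H2228 was 0.000949 for DUSP6 and 0.000186 for BMF. Deviations from the group means correlated across genes at r = 0.101, 0.00343 and 0.0830 in batches 1, 2 and 3. Replicates correlated at r = 0.988 to 0.989 and libraries of different groups at 0.983 to 0.986.

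The members, lists and named genes were chosen with earlier results of these data known. Named genes were ALK and EML4, the 10 largest protein-coding rises and falls whose groups do not overlap and that average 2 TPM or more, any member of lists of up to 15 genes and the 5 largest changes each way in longer ones, and the 5 largest differences each way between lines. EGFR, MET, FOXO1, FOXO3, FOXO4, TXNIP, HBP1 and those in the closing observations were added after their values were seen. Alternatives were other pseudocounts, scalings and filters, the batch block, plain empirical Bayes, 1 fit of all 18 libraries, and each library left out. The test was run on simulated data, where in the NCI-H2228 comparison the share of false calls lay above the nominal level and part of the smaller changes was missed. Some results are not reported here.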

Additional observations from a re-analysis of the deposited data

Results flagged for a closer look

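The responses below differed between cell lines by a test of the difference itself (limma interaction contrast, adjusted p under 0.05). Values are log2 changes in NCI-H2228 minus those in the other line, and both comparisons share the NCI-H2228 libraries. All contrasts given here kept their call under every alternative in which the gene was tested. Genes at low levels, such as PIK3IP1 and CYP1A1, did not pass the stricter TPM filter and were not tested under it.

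Among genes induced by ERK, those named here had a less negative log2 change in NCI-H2228. The differences from NCI-H3122 and SNU2535 were 2.50 and 2.38 for DUSP6, 2.38 and 2.49 for SPRY4, 2.31 and 1.87 for FOSL1, 2.30 and 2.13 for AREG, 1.03 and 2.42 for PHLDA1, and 2.51 and 1.23 for DUSP5. For EGR1 the difference from NCI-H3122 was 2.55. SPRY4 in both other lines, and DUSP6 in SNU2535, passed the filter only through DMSO libraries, so their differences there are partly set by the filter.

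Of the FOXO list, whose differences went both ways, these members rose less: FBXO32 by -0.79 and -0.50, PIK3IP1 by -1.17 and -0.86 and BCL2L11 by -0.40 and -0.59. MYC differed by -0.41 from NCI-H3122 and by 0.53 from SNU2535. CDKN1A (-0.61 and -0.48), SNAI2 (-0.47 and -0.42) and ICAM1 (-1.38 and -0.43) had lower values in NCI-H2228 than in both lines.

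Other differences from NCI-H3122 were -1.39 for FZD1, 0.95 for DUSP10, 0.91 for MXD1 and 1.75 for RGCC. They were -2.05 for ATOH8, -1.92 for FZD2, -1.87 for CYP1A1, -1.67 for SLC29A3 and -1.65 for HEG1. That of ATOH8 is partly set by the filter, which it passed in NCI-H3122 only through TRI-611 libraries. Other differences from SNU2535 were -1.05 for TNS4, -1.02 for SOCS1, -1.57 for DDIT4L, -1.40 for ANKRD1, -1.35 for PPP1R3C, -1.26 for HPDL, -1.18 for TMEM37 and 2.02 for RASSF10.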

How the results depend on the processing

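The 1882 calls in NCI-H2228 were 1177 with plain empirical Bayes and ranged from 1133 to 1746 without 1 library (1133 and 1202 without TRI-611 replicates 1 and 3, 1229 and 1167 without DMSO replicates 1 and 2). Without DMSO replicate 3, 52.7% of calls were higher. Over the other alternatives the count ran from 1382 (genes above 0 TPM kept) to 2592 (1 fit of 18 libraries), and it was 1724 with the batch as a replicate block. The differences from NCI-H3122 ranged from 1584 to 1773 without 1 library and were 1640 with the replicate block, and those from SNU2535 from 1083 to 1885 and 1473. Besides FOS, HEG1 and the EGR1 difference, the block changed no call of a gene or difference named in the prose of the report; among the other differences plotted for the 3 lines it ended those of RRS1 (NCI-H3122, adjusted p = 0.0923 with the block) and FZD1 (SNU2535, 0.0507) and brought in those of CCNG2 (NCI-H3122, 0.0456) and KLHL24 (SNU2535, 0.0431). The median of the MAPK output signature ran from -0.88 to -0.81 over all alternatives run and that of the FOXO list from 0.26 to 0.47. Signs turned for genes that were not called: ALK (0.0047) and EML4 (0.0029) without mitochondrially encoded genes, EML4 without 1 library (from -0.0435 to 0.0052, reached without TRI-611 replicate 2), COL1A1 under quantile normalization (0.0302), TMEM37 without 1 library (from -0.0137 to 0.1215), and the CDKN1B difference from NCI-H3122 under quantile normalization (0.0761), median-ratio scaling (0.0522) and without 1 library (from -0.0531 to 0.027). The causes were not tested. Depth is unknown, so how far it limits genes near 1 TPM cannot be given.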

Other observations

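Beyond the gene lists, the next 20 protein-coding rises and falls after the 10 largest were read after their values were known, and some of them are given here with a pair of the 10 largest rises, CREBRF and TCP11L2. Among the rises, the retinol dehydrogenase gene RDH10, which starts retinoic acid synthesis, averaged 111 ± 2.30 TPM with TRI-611 and 53.9 ± 2.42 TPM with DMSO (SD, n = 3 each; log2 change 1.03); it overlaps the far more abundant ribosomal protein gene RPL7 on the other strand. HBP1, a repressor of cell cycle genes, averaged 24.8 ± 1.72 and 11.3 ± 0.678 TPM (log2 change 1.06), and PNRC1, a nuclear receptor coregulator, 82.3 ± 6.68 and 39.9 ± 2.69 TPM (1.02). LFNG, which modifies Notch receptors, rose by 0.93 and the adaptor gene GRB7 by 1.03, and a pair of the small YPEL genes rose together, YPEL2 by 0.98 and YPEL3 by 0.95. RETREG1, a receptor for autophagy of the endoplasmic reticulum, rose by 0.95. CREBRF, a regulator of stress responses, was at 6.07, 5.12 and 5.79 TPM with TRI-611 and 1.95, 1.76 and 2.34 TPM with DMSO (log2 change 1.15), and TCP11L2 at 6.20, 7.06 and 7.71 TPM against 2.71, 2.43 and 2.37 TPM (1.19).

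Among the falls, the kinase gene SGK1 averaged 4.18 ± 0.492 TPM with TRI-611 and 12.5 ± 0.279 TPM with DMSO (SD, n = 3 each; log2 change -1.38), and G0S2, an inhibitor of the lipase ATGL, 121 ± 7.25 and 248 ± 4.75 TPM (-1.03). The adenosine receptor gene ADORA1 fell by 1.00 and the lysolipid transporter gene MFSD2A by 1.02 on the log2 scale.

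Of the genes without a protein, MIR6813, a microRNA precursor gene that lies inside RGS19, was listed at 0 in all 3 TRI-611 libraries and stood at 7.87, 5.00 and 5.34 TPM in DMSO libraries. It passed the filter only through its DMSO libraries, so its fall is partly set by the filter. The pseudogene KRT16P2 fell by 1.47 on the log2 scale. Among the rises, MIR3181 (log2 change 2.24) and AC120498.1 (1.17) lost the call without several single libraries, and the mitochondrial tRNA gene MT-TG (1.45) lost it when all 18 libraries were fitted together. Short genes of this kind hold few reads, and the depth behind their TPM is unknown.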
